A study of Homo sapiens with 16 samples.

Results

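Small nucleolar RNA host genes were followed through 16 RNA-Seq libraries of MUTZ-3, a human acute myeloid leukemia (AML) cell line with inv(3), the inversion that places *EVI1* under a foreign enhancer. The 10 genes described, *SNHG1*, *SNHG3*, *SNHG4*, *SNHG5*, *SNHG6*, *SNHG8*, *SNHG12*, *SNHG15*, *GAS5* and *ZFAS1*, were found by name among 60623 genes with a count in every library, and each name matched 1 gene. They were chosen with earlier results of these libraries in view, so their differences from the controls are given below as a description. Calls of these genes against the controls are counted in places, but they are not a test of them. In the inhibitor experiment, cells were kept for 12, 24 or 48 h with the vehicle DMSO or with an inhibitor of poly(ADP-ribose) polymerase (PARPi), either olaparib at 10 µM or talazoparib at 1 µM, and untreated cells gave a library at 0 h. In the knockdown experiment, cells carried a non-targeting control (NTC) or 1 of 2 short hairpin RNAs against *EVI1*, shEVI1-2531 or shEVI1-2532, delivered with a lentivirus under puromycin selection, and were sequenced at day 3 or day 6. No allele other than those of the line itself is named for any group. Every condition was sequenced once, in 1 cell line. The error of an average over time points or days therefore starts from how far these depart from one another. Such departures may be technical as well as biological. The fits also pool this error over all genes, so the standard error of a gene can differ from what its own departures imply.

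A host gene of this family is transcribed and spliced like any long RNA, and small nucleolar RNAs (snoRNAs) are cut out of its introns. The snoRNAs then guide the chemical modification of ribosomal RNA, box C/D snoRNAs the methylation of ribose and box H/ACA snoRNAs the conversion of uridine to pseudouridine, while the joined exons leave as a non-coding RNA. Many of these genes start transcription within a run of pyrimidines, as ribosomal protein genes do, and several of the spliced RNAs are known targets of nonsense-mediated decay, which couples their level to translation. *GAS5* was named for its accumulation in growth-arrested cells.

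The libraries were prepared from polyadenylated RNA with a kit that keeps the strand, and whether strand was used in counting is not given in the sources used here. Total counts ran from 55999673 to 72681943 in the inhibitor experiment and from 95523038 to 120716213 in the knockdown. The host genes had between 304 and 177628 counts in a library, and the 95% counting interval included 0 for 3 of the 100 log2 ratios of a treated library to its control, all 3 in the inhibitor experiment (*SNHG5* and *SNHG6* with olaparib at 12 h and *SNHG8* with talazoparib at 24 h). Levels are given as CPM, counts scaled to a fixed library size, after scaling with the trimmed mean of M-values (TMM), and are compared between libraries for 1 gene at a time, never between genes. *EVI1* itself, listed as MECOM, was at 32.4% of NTC with shEVI1-2531 and 12.7% with shEVI1-2532 at day 3, and at 47.1% and 11.6% at day 6. The files under which the shEVI1-2531 counts were deposited carry another number, so the identity of this hairpin rests on the sample labels.

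Start sites are shown first, since a start within pyrimidines is the feature that the family is known to share. RefSeq promoters on GRCh38.p14 were matched by symbol for 8 of the 10 genes, and not for *SNHG6* and *SNHG15*. Each line below gives 70 bases, from 40 before the start to 30 from the start on, in the direction of transcription. Capitals mark the letters TATAA where they begin 40 to 20 bases before the start, and a run of C followed by at least 4 pyrimidines where its C lies within 5 bases of the start.
*SNHG1* (chr11:62855856-62855925, minus strand): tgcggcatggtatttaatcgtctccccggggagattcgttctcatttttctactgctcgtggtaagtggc
*SNHG3* (chr1:28505903-28505972, plus strand): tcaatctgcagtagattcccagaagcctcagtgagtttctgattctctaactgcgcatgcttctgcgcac
*SNHG4* (chr5:139274061-139274130, plus strand): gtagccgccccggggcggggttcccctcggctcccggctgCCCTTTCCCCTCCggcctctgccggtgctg
*SNHG5* (chr6:85678704-85678773, minus strand): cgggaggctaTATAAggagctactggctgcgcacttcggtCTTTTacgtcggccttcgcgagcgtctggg
*SNHG8* (chr4:118278722-118278791, plus strand): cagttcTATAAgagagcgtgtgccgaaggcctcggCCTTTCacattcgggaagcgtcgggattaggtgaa
*SNHG12* (chr1:28581844-28581913, minus strand): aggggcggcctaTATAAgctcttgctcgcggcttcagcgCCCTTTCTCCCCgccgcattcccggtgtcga
*GAS5* (chr1:173869016-173869085, minus strand): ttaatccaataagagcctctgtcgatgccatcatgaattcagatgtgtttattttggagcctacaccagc
*ZFAS1* (chr20:49278602-49278671, plus strand): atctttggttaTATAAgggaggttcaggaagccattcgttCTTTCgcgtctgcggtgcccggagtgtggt
The pyrimidine run was found in 5 of these 8 genes, *SNHG4*, *SNHG5*, *SNHG8*, *SNHG12* and *ZFAS1*, and in 21.1% of the 35116 promoters in the table. The letters TATAA, searched on the transcribed strand alone, were found in *SNHG5*, *SNHG8*, *SNHG12* and *ZFAS1*, against 3.91% of all promoters. CACGTG, which reads the same on both strands, was in none of the 8 windows of 300 bases and in 7.26% of all. The RefSeq starts lay between 1 base (*SNHG4*) and 1259 bases (*SNHG12*) from the ends of the genes in the deposited files, and that of *GAS5* lay 163 bases before the deposited end, so the window shown for it may not be the start used in these cells. Genes with the pyrimidine run were found both among those that were lower and among those that were not, as given next.

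The host genes split into 2 sets of 5 when the inhibitor libraries were set against DMSO of the same hour. *SNHG1*, *SNHG3*, *SNHG4*, *SNHG12* and *SNHG15* were lower in all 6 inhibitor libraries, whereas *GAS5*, *SNHG5*, *SNHG6*, *SNHG8* and *ZFAS1* stayed within 76.9% to 179% of DMSO and were above it in 2 or 3 of the 6. The sets were drawn after these values were seen. Among all 17218 genes tested, 19.2% were below DMSO in all 6 libraries and 17.7% were above it in all 6. Over all 60 pairs of a host gene and an inhibitor library, 46 were below DMSO, and over all genes tested 50.7% of pairs were. Olaparib and talazoparib were set against the same DMSO libraries and share their error.

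**Figure D1:**
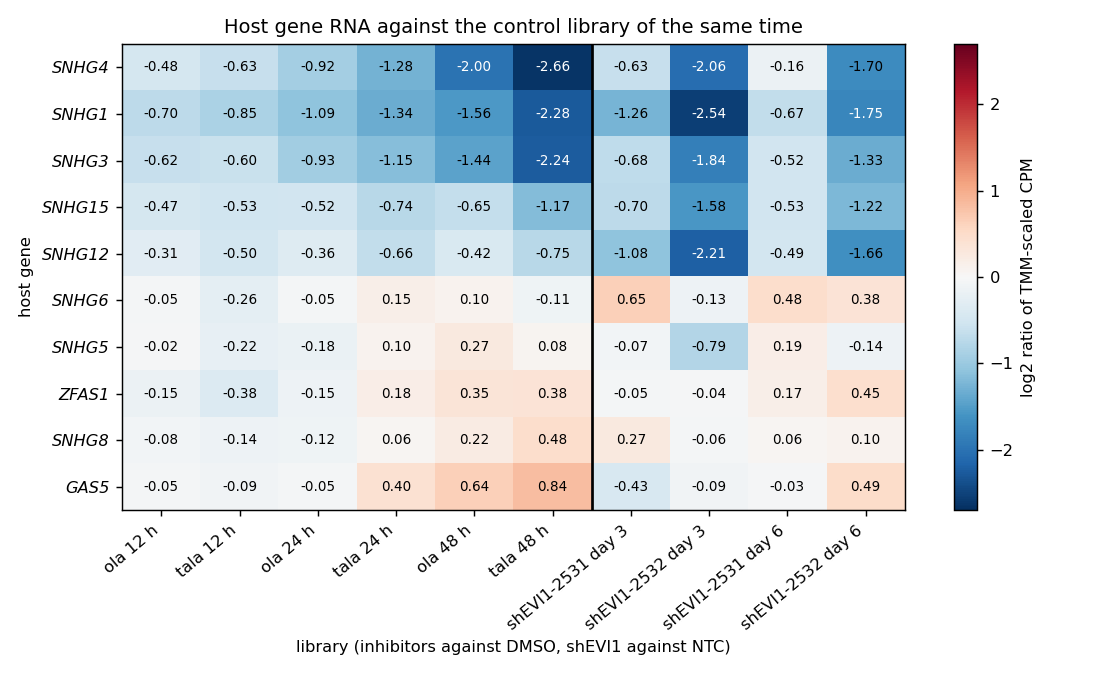
Heat map of the log2 ratio of TMM-scaled CPM between each treated library (columns, 1 library each) and the control library of the same hour or day, for the 10 host genes (rows, ordered by their mean PARPi value). The top 5 rows are below 0 in all 10 columns, with *SNHG4* at −2.66 after talazoparib for 48 h, and the bottom 5 rows lie between −0.79 and 0.84.

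*SNHG1*, host of SNORD22, SNORD25 to SNORD28 and SNORD30, lies at chr11:62851984-62855953 (minus strand) in the files. Its level was 63.9 CPM in untreated cells and 79.7, 90.0 and 118 CPM with DMSO at 12, 24 and 48 h. It was 49.0, 42.3 and 39.9 CPM after olaparib and 44.2, 35.6 and 24.3 CPM after talazoparib. All 6 inhibitor libraries therefore lay below all 3 DMSO libraries and below the untreated one, and DMSO and inhibitor libraries moved apart with time. All 6 inhibitor libraries were below all 3 DMSO libraries for 6.82% of the genes tested.

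**Figure D2:**
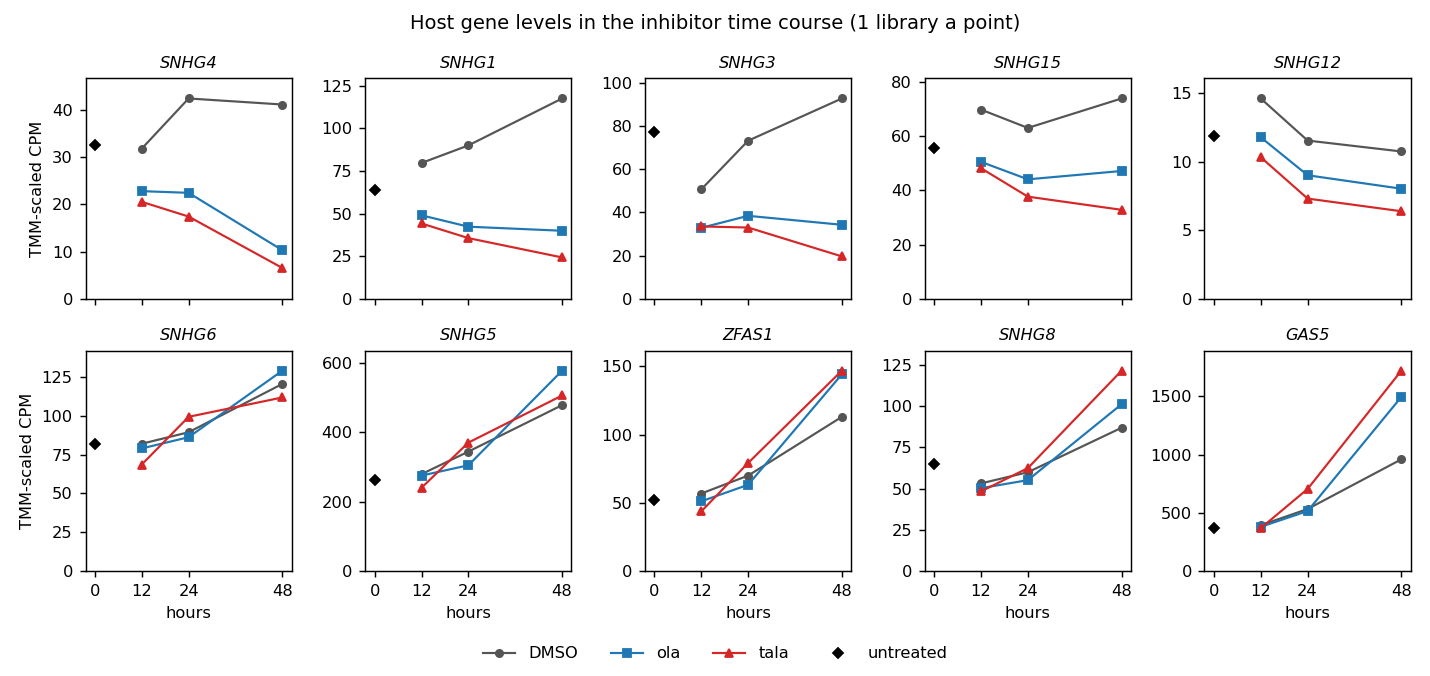
TMM-scaled CPM (y axes, from 0) against hours (x axes) for the 10 host genes in the inhibitor experiment, with untreated cells, DMSO, olaparib (ola) and talazoparib (tala) as 1 library a point. In the upper row the inhibitor curves run below DMSO at every hour, while in the lower row the 3 curves climb together, as for *GAS5* from 393 to 960 CPM with DMSO.

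*SNHG3*, which carries SNORA73A and SNORA73B, lies at chr1:28505980-28510892 (plus strand). It had 50.7, 73.3 and 92.8 CPM with DMSO, 32.9, 38.5 and 34.3 CPM after olaparib, and 33.5, 33.0 and 19.7 CPM after talazoparib. The groups did not overlap, and the untreated library, at 77.4 CPM, lay among the DMSO libraries. *RCC1*, a gene for the exchange factor of Ran, spans *SNHG3* on the same strand, and reads of the shared part cannot be told apart. *RCC1* fell after PARPi (log2 fold change −0.75, standard error 0.14, adjusted p = 0.0384 by the edgeR test adjusted over all genes), beside −1.18 (standard error 0.22) for *SNHG3*, and the difference between the genes was not tested.

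*SNHG4*, host of SNORA74A and SNORA74D at chr5:139274102-139284899 (plus strand), had the largest mean difference of the 10. It held 31.8, 42.5 and 41.2 CPM with DMSO and 32.6 CPM in untreated cells. After olaparib it held 22.8, 22.5 and 10.3 CPM, and after talazoparib 20.6, 17.4 and 6.54 CPM. At 48 h the log2 ratios to DMSO were −2.00 and −2.66, and again no inhibitor library reached a DMSO library. *SIL1*, which encodes an exchange factor of the endoplasmic reticulum, covers the locus on the other strand and did not pass the test after PARPi (0.38, standard error 0.10, adjusted p = 0.0551 by edgeR). *MATR3* is listed across the locus on the same strand, with 7 to 31 counts in a library. Reads of the part shared with *MATR3* cannot be told apart.

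*SNHG15*, host of SNORA9 at chr7:44983023-44986961 (minus strand), had a smaller mean difference. DMSO libraries held 69.8, 63.0 and 73.9 CPM, olaparib libraries 50.5, 44.1 and 47.1 CPM, and talazoparib libraries 48.2, 37.7 and 32.8 CPM. Groups did not overlap. *SNHG12*, host of SNORD99, SNORA61, SNORA44 and SNORA16A at chr1:28578538-28583132 (minus strand), held 14.6, 11.5 and 10.8 CPM with DMSO, 11.8, 9.02 and 8.04 CPM after olaparib, and 10.3, 7.31 and 6.39 CPM after talazoparib. It was below DMSO at each hour, but its DMSO level also declined, and the olaparib library at 12 h lay above the DMSO libraries at 24 and 48 h. Of the 10 genes it alone was lower with DMSO at 48 h than at 12 h.

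*GAS5*, host of a large set of box C/D snoRNAs, lies at chr1:173858559-173868882 (minus strand). Its level was higher at each later hour in all 3 treatments. It was 371 CPM in untreated cells, then 393, 533 and 960 CPM with DMSO, 380, 515 and 1496 CPM with olaparib and 368, 705 and 1722 CPM with talazoparib. At 12 h both inhibitor libraries were just below DMSO (96.6% and 93.7%), and at 48 h they were at 156% and 179% of it. The change with time in DMSO alone, a log2 ratio of 1.29 between 48 and 12 h, was larger than any ratio of an inhibitor library to DMSO. *ZBTB37*, which overlaps it on the other strand, had a mean PARPi log2 fold change of 0.07 (standard error 0.10, adjusted p = 0.658 by edgeR).

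*ZFAS1*, host of SNORD12, SNORD12B and SNORD12C at chr20:49278178-49299600 (plus strand), resembled *GAS5*. It held 56.8, 69.9 and 113 CPM with DMSO, 51.1, 63.2 and 144 CPM with olaparib, and 43.7, 79.2 and 147 CPM with talazoparib. It was thus lower than DMSO at 12 h with both inhibitors and higher at 48 h with both. *SNHG8*, host of SNORA24 at chr4:118278709-118285316 (plus strand), did the same, with 53.1, 59.9 and 86.8 CPM with DMSO, 50.2, 55.1 and 101 CPM with olaparib and 48.2, 62.4 and 121 CPM with talazoparib.

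*SNHG5*, host of SNORD50B at chr6:85650491-85678932 (minus strand), held 280, 345 and 479 CPM with DMSO, 275, 305 and 578 CPM with olaparib and 240, 371 and 507 CPM with talazoparib. *SNHG6*, host of SNORD87 at chr8:66921684-66926398 (minus strand), held 82.1, 89.5 and 121 CPM with DMSO, 79.1, 86.3 and 129 CPM with olaparib and 68.7, 99.5 and 112 CPM with talazoparib. Both followed the DMSO time course closely, and inhibitor and DMSO libraries interleaved. For these 5 genes the log2 ratio of DMSO at 48 h to DMSO at 12 h lay between 0.56 and 1.29, with a median of 0.78, and for the other 5 between −0.44 and 0.87, with a median of 0.37. Each ratio rests on 2 libraries, and no test of the difference between the sets was made.

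Averaged over both inhibitors and the 3 hours, the log2 fold change was −1.37 (standard error 0.28) for *SNHG4*, −1.32 (0.20) for *SNHG1*, −1.18 (0.22) for *SNHG3*, −0.68 (0.12) for *SNHG15* and −0.50 (0.10) for *SNHG12*. It was 0.28 (0.16) for *GAS5*, 0.07 (0.11) for *SNHG8*, 0.04 (0.14) for *ZFAS1*, 0.01 (0.12) for *SNHG5* and −0.03 (0.10) for *SNHG6*. The first 5 passed an adjusted p of 0.05 by the quasi-likelihood test of edgeR, as did 4.17% of all genes tested, 1.01% downward and 3.16% upward. Since these libraries led to the choice of the genes, nothing is read from that count. It was 3 with counts scaled to the library total alone (*SNHG1*, *SNHG3* and *SNHG15*), and 0 without the 24 h libraries or without the hour in the model, where 0 and 16 of all genes were called.

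The size of the difference grew with time for the lower 5, and both the DMSO and the inhibitor level enter it. From 12 to 48 h *SNHG3* went from 50.7 to 92.8 CPM with DMSO and from 32.9 to 34.3 CPM with olaparib. *SNHG4* went from 31.8 to 41.2 CPM and from 22.8 to 10.3 CPM. At 12 h the lower 5 were at 61.5% to 80.6% of DMSO after olaparib and at 55.5% to 70.7% after talazoparib, when *EVI1* was at 90.7% and 91.5%. At 48 h they were at no more than 74.7% and 59.4%, with *SNHG4* at 15.9% after talazoparib, and *EVI1* at 37.9% and 16.3%. Markers of other cell states differed in the same libraries. For 10 monocyte markers, none of them at 0 in any library, the summed level was 1208 to 1582 CPM with DMSO, 1472 to 10498 CPM with olaparib and 1444 to 17379 CPM with talazoparib. For 10 proliferation markers it was 2616 to 2994 CPM, 1261 to 2644 CPM and 492 to 2493 CPM. In the mean PARPi fit 1 monocyte marker was below 0 and 1 was called higher by edgeR, where 3.16% of all genes were. All 10 proliferation markers were below 0 and 1 was called lower, where 1.01% of all genes were. At 12 h the median log2 ratio of the proliferation markers was −0.13 after olaparib and −0.22 after talazoparib, against −0.48 and −0.60 for the lower 5 host genes. At 48 h it was −1.39 and −3.14, against −1.44 and −2.24. The lower 5 were drawn after their values in these libraries were seen, which bears on both comparisons. Over all 10 host genes the medians were −0.23 and −0.44 at 12 h, and −0.16 and −0.43 at 48 h. The part of either marker list in the host gene values was not tested. A lower level can mean less RNA in each cell or fewer cells that make it, and bulk libraries cannot tell these apart.

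Olaparib and talazoparib were compared with each other at the same hours, a contrast that did not choose the genes but shares their libraries. The doses were 10 and 1 µM and so not matched, and the comparison is of these treatments and not of the compounds at 1 dose. None of the 10 genes passed the test. The log2 fold change of talazoparib against olaparib ran from −0.35 for *SNHG4* (95% confidence interval −1.11 to 0.40) and −0.35 for *SNHG1* (−0.88 to 0.19) to 0.21 for *GAS5* (−0.21 to 0.62), and all adjusted p-values were at or above 0.952 by the edgeR test adjusted over all genes. Of all 17218 genes, 0 were called (0.0%), 354 had an unadjusted p under 0.05, and DESeq2 called 1. Talazoparib was lower than olaparib of the same hour in 21 of 30 pairs over the 10 genes, 14 of 15 for the lower 5 and 7 of 15 for the other 5, and in 50.5% of pairs over all genes tested. The lower 5 were drawn after their values in these libraries were seen. All genes share the same libraries at an hour, so the pairs are not independent and their counts only describe. The intervals leave room for a difference of over 1 on the log2 scale for *SNHG4*.

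**Figure D3:**
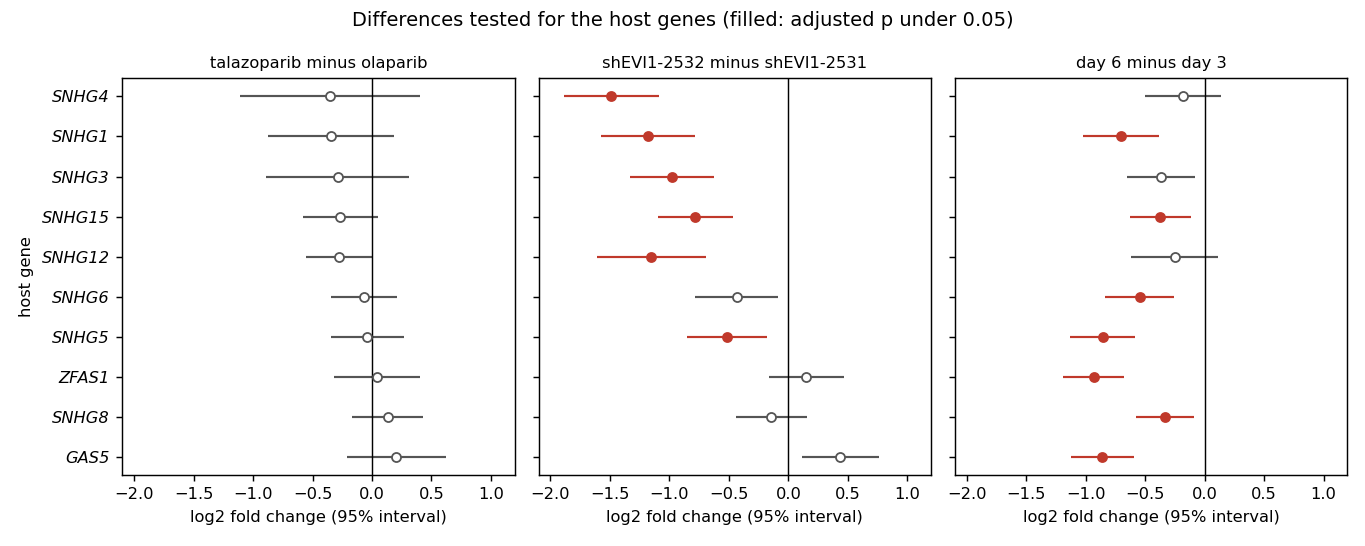
Log2 fold changes with 95% confidence intervals (x axes) of the 10 host genes (rows) for talazoparib minus olaparib, shEVI1-2532 minus shEVI1-2531 and day 6 minus day 3, from edgeR's fits over all genes; filled red points have an adjusted p under 0.05. None is filled in the left panel, 6 are in the middle and 7 in the right, all of these below 0.

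In the knockdown experiment the same 5 genes were lower than NTC in all 4 shEVI1 libraries. Among all 18606 genes tested, 24.3% were below NTC in all 4 and 24.9% above it in all 4. The 5 were thus below their control in all 10 treated libraries of both experiments, as were 8.83% of the genes tested in both. Of the other 5, *SNHG5* was below NTC in 3 of 4 libraries, *GAS5* in 3, *ZFAS1* in 2, and *SNHG6* and *SNHG8* in 1. With counts scaled to the library total alone, *ZFAS1* and *SNHG8* were below NTC in 3 of 4. Over the 40 pairs of a host gene and a shEVI1 library, 30 were below NTC, and over all genes tested 49.6% of pairs were. Both hairpins were set against the same 2 NTC libraries, so their values share that error.

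**Figure D4:**
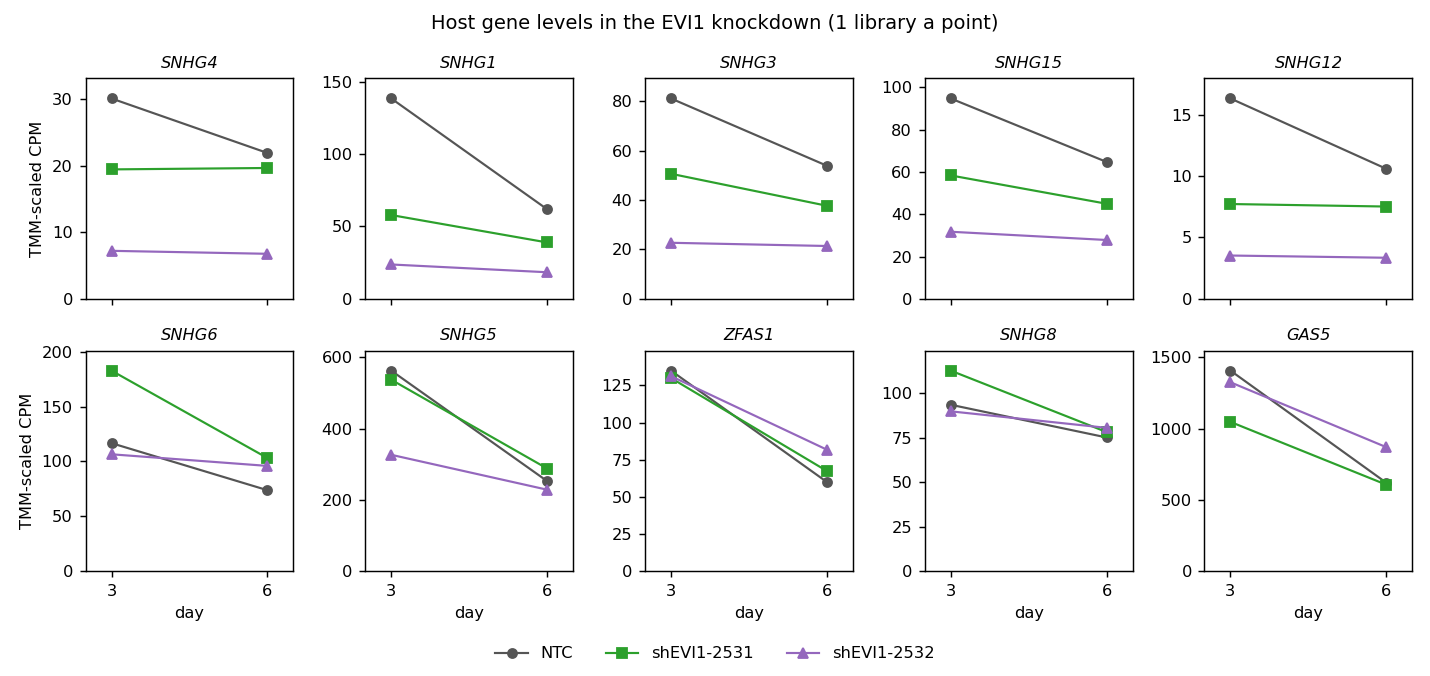
TMM-scaled CPM (y axes, from 0) at day 3 and day 6 (x axes) for the 10 host genes with NTC, shEVI1-2531 and shEVI1-2532, 1 library a point. In the upper row shEVI1-2532 is lowest and NTC highest at both days, while in the lower row the order varies and most lines fall from day 3 to day 6.

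*SNHG1* had 138 and 61.8 CPM with NTC at day 3 and day 6, 57.8 and 38.9 CPM with shEVI1-2531, and 23.7 and 18.3 CPM with shEVI1-2532. *SNHG12* had 16.3 and 10.6 CPM, 7.72 and 7.52 CPM, and 3.53 and 3.34 CPM. For both genes the 3 groups did not overlap, with shEVI1-2532 lowest and NTC highest, an order without overlap that 6.58% of the genes tested also had.

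*SNHG3* had 81.1 and 53.8 CPM with NTC, 50.6 and 37.7 CPM with shEVI1-2531 and 22.7 and 21.4 CPM with shEVI1-2532. *SNHG15* had 94.7 and 64.7 CPM, 58.3 and 44.9 CPM, and 31.7 and 27.8 CPM. *SNHG4* had 30.2 and 21.9 CPM with NTC, 19.5 and 19.7 CPM with shEVI1-2531 and 7.22 and 6.78 CPM with shEVI1-2532. Again the groups did not overlap, although *SNHG4* with shEVI1-2531 at day 6 was close to NTC, at 89.7%. All 4 shEVI1 libraries were below both NTC libraries for all 5 of these genes and for 15.4% of the genes tested. *RCC1*, which spans *SNHG3*, did not pass the test with shEVI1-2531 (log2 fold change −0.02, standard error 0.13, adjusted p = 0.93 by edgeR). With shEVI1-2532 *RCC1* fell (−0.53, 0.13, adjusted p = 0.00591 by edgeR).

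*GAS5* had 1406 and 619 CPM with NTC, 1047 and 605 CPM with shEVI1-2531, and 1325 and 869 CPM with shEVI1-2532. *ZFAS1* had 135 and 59.9 CPM, 130 and 67.3 CPM, and 131 and 81.7 CPM, and *SNHG8* 93.5 and 75.1 CPM, 113 and 78.2 CPM, and 89.8 and 80.5 CPM. *SNHG6* had 117 and 73.7 CPM with NTC, 183 and 103 CPM with shEVI1-2531 and 106 and 95.8 CPM with shEVI1-2532, and was highest with shEVI1-2531 at both days. *SNHG5* had 563 and 252 CPM, 537 and 288 CPM, and 326 and 228 CPM, lowest with shEVI1-2532 at both days. For these 5 genes all 3 libraries of day 6 were below all 3 of day 3, as they were for 10.2% of the genes tested.

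Averaged over both days, the log2 fold change with shEVI1-2532 was −2.16 (standard error 0.19) for *SNHG1*, −1.95 (0.21) for *SNHG12*, −1.88 (0.18) for *SNHG4*, −1.58 (0.16) for *SNHG3* and −1.40 (0.15) for *SNHG15*. It was −0.46 (0.15) for *SNHG5* and between 0.02 and 0.20 for the remaining 4. With shEVI1-2531 it was −0.98 (0.18), −0.79 (0.20), −0.40 (0.18), −0.60 (0.16) and −0.62 (0.14) for the first 5 in the same order, and between −0.24 (*GAS5*) and 0.57 (*SNHG6*, 0.16) for the others. With shEVI1-2532, 6 host genes had an adjusted p under 0.05 by edgeR and all were lower, where 19.9% of all genes were lower and 21.2% higher. With shEVI1-2531, 4 were lower and *SNHG6* was higher, where 7.9% and 9.49% of all genes were. As with PARPi, these counts describe genes picked on these libraries. With shEVI1-2531 they rested on single libraries, since without NTC at day 3 none of the 10 was called and without shEVI1-2531 at day 3 only *SNHG1* was.

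The 2 hairpins differed for 6 of the 10 host genes, and each of the 6 was lower with shEVI1-2532. The test uses libraries that also led to the choice of the genes. The difference was −1.49 (standard error 0.18, adjusted p = 0.000183 by the edgeR test adjusted over all genes) for *SNHG4*, −1.18 (0.18, adjusted p = 0.000734) for *SNHG1* and −1.15 (0.21, adjusted p = 0.00203) for *SNHG12*. It was −0.98 (0.16, adjusted p = 0.00115) for *SNHG3*, −0.78 (0.14, adjusted p = 0.0023) for *SNHG15* and −0.52 (0.15, adjusted p = 0.0285) for *SNHG5* by edgeR. All 6 were lower with shEVI1-2532 at both days. The remaining 4 lay between −0.44 (*SNHG6*, 95% confidence interval −0.79 to −0.08, adjusted p = 0.0701) and 0.44 (*GAS5*, 0.11 to 0.76, adjusted p = 0.0518 by edgeR). *GAS5* was called higher with shEVI1-2532 by DESeq2, with relative log expression or upper quartile scaling, and with no filter. *SNHG6* was called lower with counts scaled to the library total alone and with no filter. Of all 18606 genes, 12.0% were lower and 12.2% higher with shEVI1-2532. *EVI1* differed in the same direction, by −1.70 (standard error 0.20, adjusted p = 0.000138 again by edgeR). Without the day in the model only *SNHG4* was called, and *SNHG5* was lost without the day 3 library of either hairpin.

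From day 3 to day 6 most host genes fell. All 10 were lower at day 6 with NTC and with shEVI1-2532, and 9 with shEVI1-2531, the exception being *SNHG4* with 19.7 against 19.5 CPM. Scaled to the library total alone, *SNHG3* (19.95 against 19.88 CPM) and *SNHG12* (3.12 against 3.09 CPM) were higher at day 6 with shEVI1-2532. *SNHG4* (20.8 against 18.1 CPM) and *SNHG12* (7.94 against 7.19 CPM) were then higher with shEVI1-2531. The share of all genes lower at day 6 in each arm was not counted. The difference of day 6 from day 3, with the hairpins as a factor, was negative for all 10 and passed the test for 7, where 11.9% of all genes were lower and 11.9% higher. Its median over the 10 was −0.46, against 0.03 over all genes tested. *ZFAS1* fell by 0.94 on the log2 scale (standard error 0.12, adjusted p = 0.00157 by the edgeR test adjusted over all genes), *GAS5* by 0.86 (0.12, adjusted p = 0.00176) and *SNHG5* by 0.86 (0.13, adjusted p = 0.00176). *SNHG1* fell by 0.70 (0.15, adjusted p = 0.00595), *SNHG6* by 0.55 (0.13, adjusted p = 0.0115), *SNHG15* by 0.37 (0.12, adjusted p = 0.0381) and *SNHG8* by 0.33 (0.11, adjusted p = 0.0481) by edgeR. *SNHG3*, *SNHG4* and *SNHG12* had −0.37, −0.18 and −0.25 and adjusted p-values of 0.0596, 0.417 and 0.313 by edgeR. Without the NTC libraries or without the shEVI1-2531 libraries 4 genes were called, *GAS5*, *SNHG5*, *SNHG1* and *ZFAS1*, and none was without the hairpin in the model. The cytosolic ribosomal protein genes also fell, with 67 of 79 lower and none higher (median −0.61, against 0.03 over all genes tested).

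In these libraries the monocyte markers summed to 1175 to 1654 CPM with NTC, 2764 to 3405 CPM with shEVI1-2531 and 10240 to 10322 CPM with shEVI1-2532. The proliferation markers summed to 1611 to 2065 CPM, 1204 to 1481 CPM and 738 to 839 CPM, and all 10 were lower than NTC in each of the 4 shEVI1 libraries. The summed proliferation markers thus ran in the same order as *EVI1* and the lower 5 host genes and the summed monocyte markers in the reverse order, and their part in the host gene values was not tested. Of the 10 monocyte markers, 3 had a log2 fold change below 0 with shEVI1-2531 and 0 with shEVI1-2532. By edgeR 7 and 8 of them were called higher, where 9.49% and 21.2% of all genes were. Between day 3 and day 6 the summed level of the monocyte markers was 1654 and 1175 CPM with NTC, 3405 and 2764 CPM with shEVI1-2531, and 10322 and 10240 CPM with shEVI1-2532. Single markers differed from the sum, as 4 of the 10 were called higher at day 6 and 3 lower by edgeR. Of all genes, 11.9% were called lower and 11.9% higher. The median log2 fold change of the 10 monocyte markers was 0.34. The summed level of the proliferation markers was lower at day 6 in all 3 arms, with 2065 and 1611 CPM, 1481 and 1204 CPM, and 839 and 738 CPM. Of the 10 proliferation markers, 5 were called lower and 2 higher by edgeR, at a median log2 fold change of −0.39. Mitochondrial genes took 2.49% and 3.40% of counts with NTC at day 3 and day 6, 3.05% and 2.97% with shEVI1-2531, and 4.0% and 4.21% with shEVI1-2532, and their part was not tested either.

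Mature snoRNAs carry no poly(A) tail, and few of their reads were in these libraries. The files list 23 snoRNA genes inside 9 of the 10 host genes on the same strand, and 17 of these had 0 counts in all 16 libraries, among them all 7 inside *SNHG1*. Of these, 5 are shown as they are the intron products of the gene with the largest differences in the knockdown. Capitals mark the letters TGATGA of the C box, where present, and the last CTGA, the D box, in the GENCODE 29 sequences.
SNORD25 (chr11:62855564-62855632, minus strand): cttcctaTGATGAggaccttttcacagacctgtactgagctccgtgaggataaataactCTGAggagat
SNORD26 (chr11:62855292-62855366, minus strand): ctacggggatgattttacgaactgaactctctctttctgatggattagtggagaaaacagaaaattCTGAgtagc
SNORD27 (chr11:62855012-62855083, minus strand): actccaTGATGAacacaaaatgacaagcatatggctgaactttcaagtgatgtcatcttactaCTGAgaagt
SNORD28 (chr11:62854621-62854695, minus strand): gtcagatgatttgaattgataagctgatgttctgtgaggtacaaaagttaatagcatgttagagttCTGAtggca
SNORD30 (chr11:62853663-62853732, minus strand): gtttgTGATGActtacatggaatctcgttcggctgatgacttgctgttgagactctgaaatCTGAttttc
TGATGA was marked in 3 of the 5 and not in SNORD26 and SNORD28. The only snoRNA with more than 51 counts in any library was SNORA73B in *SNHG3*, a box H/ACA RNA, shown with the ACA near its 3′ end in capitals.
SNORA73B (chr1:28508559-28508762, plus strand): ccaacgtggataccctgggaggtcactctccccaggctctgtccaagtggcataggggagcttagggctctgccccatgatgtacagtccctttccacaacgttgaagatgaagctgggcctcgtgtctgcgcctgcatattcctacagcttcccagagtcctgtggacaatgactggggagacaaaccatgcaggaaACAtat
SNORA73B had 57, 76 and 71 counts with DMSO, 49, 52 and 31 with olaparib, and 47, 42 and 39 with talazoparib. In the knockdown it had 231 and 120 counts with NTC at day 3 and day 6, 110 and 99 with shEVI1-2531, and 63 and 41 with shEVI1-2532. It fell with shEVI1-2532 (log2 fold change −1.22, standard error 0.29, adjusted p = 0.00575 by the edgeR test adjusted over all genes), in the direction of its host, and did not pass the test with shEVI1-2531 (−0.37, adjusted p = 0.404) or PARPi (−0.47, adjusted p = 0.125 by edgeR). Reads there can come from the snoRNA or from unspliced *SNHG3* or *RCC1* RNA, which the counts do not separate. Summed over all 23, snoRNA counts were below the control in each of the 10 treated libraries, and the 95% counting interval excluded 0 in 2 of the 6 inhibitor and in all 4 shEVI1 libraries. Most of the sum came from SNORA73B (1194 counts over the 16 libraries) and SNORD99 in *SNHG12* (325 counts). Only 2 of the 23 reached 10 counts, so the sum describes these and not the snoRNAs of the other host genes.

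Other non-coding snoRNA host genes were examined from a list of 22 names, of which 16 were tested. Shares of all genes stand beside the counts in this and the following lists. After PARPi they were 1.01% lower and 3.16% higher. They were 19.9% and 21.2% with shEVI1-2532, and 7.9% and 9.49% with shEVI1-2531. After PARPi 6 of them fell and none rose, with a median log2 fold change of −0.46 against −0.01 over all genes tested. *SNHG10* (−1.39, standard error 0.22, adjusted p = 0.0263) and *SNHG20* (−0.92, 0.15, adjusted p = 0.031 by the edgeR test adjusted over all genes) had the smallest p, and *SNHG26*, *DANCR*, *SNHG9* and *SNHG17* were the others. As for all genes, none of the PARPi calls in this and the following lists was kept without the 24 h libraries. With shEVI1-2532, 10 fell and *SNHG16* rose (0.74, 0.13, adjusted p = 0.000934), at a median of −0.82. *DANCR*, a regulator of cell differentiation, fell (−1.25, 0.17, adjusted p = 0.000108), as did *SNHG26* (−1.62, 0.22, adjusted p = 0.000109 again by edgeR). With shEVI1-2531 none fell, and *DANCR* (0.52, adjusted p = 0.0476) and *SNHG16* (0.59, adjusted p = 0.00987 by edgeR) rose. *DANCR* was therefore on opposite sides of NTC with the 2 hairpins, and it was among the 10 of this list that were lower with shEVI1-2532 than with shEVI1-2531.

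**Figure D5:**
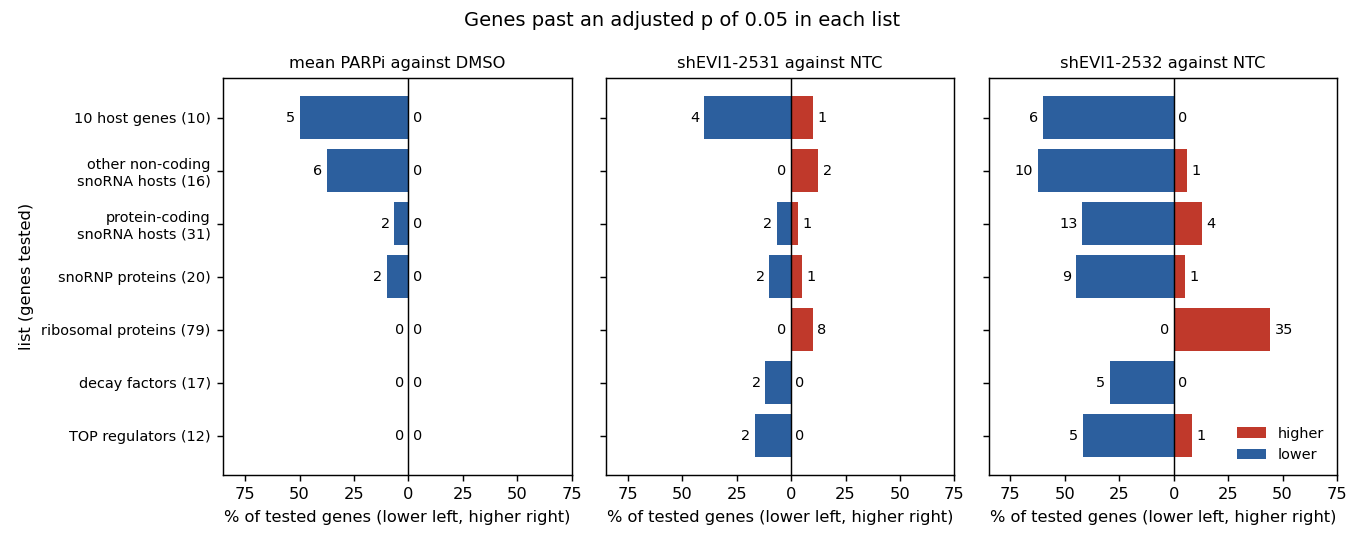
Share of tested genes past an adjusted p of 0.05 in edgeR's fits (x axes, percent, lower to the left and higher to the right, with the number of genes at each bar) in 7 lists (rows, number tested in brackets) for the mean PARPi effect, shEVI1-2531 and shEVI1-2532. The 10 host genes and the other non-coding hosts reach left after PARPi, with 5 and 6 genes, while ribosomal protein genes reach right with shEVI1-2532, with 35 of 79. The bars of the 10 host genes show contrasts that led to their choice and are not a test.

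Genes that code for protein and also carry snoRNAs were examined next. Of 31 tested, 2 fell after PARPi, *NOP56* (−0.62, standard error 0.13, adjusted p = 0.0468) and *DKC1* (−0.60, 0.13, adjusted p = 0.0471 by edgeR), which encode a core protein of box C/D and the pseudouridine synthase of box H/ACA particles. The list median was −0.28, and neither was called with counts scaled to the library total alone. With shEVI1-2532, 13 fell and 4 rose, the smallest p belonging to *TNPO2*, a nuclear import receptor (−1.55, 0.14, adjusted p = 6.68e-06), and *RABGGTB*, a subunit of a prenyl transferase (−1.22, 0.16, adjusted p = 9.58e-05), and upward to *EEF2* (0.83, 0.13, adjusted p = 0.000354) and *RACK1* (0.75, 0.13, adjusted p = 0.000725 by edgeR), an elongation factor and a ribosomal scaffold protein.

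Of the proteins that bind and assemble snoRNAs, 20 were tested, and *NOP56* and *DKC1*, which are in both lists, fell after PARPi, at a list median of −0.45. With shEVI1-2532, 9 fell and *NOP10* rose (0.38, standard error 0.12, adjusted p = 0.0289 by edgeR), and with counts scaled to the library total alone 16 fell and none rose. Those that fell included *RUVBL1*, an ATPase of the assembly complex (−0.86, 0.13, adjusted p = 0.00021), and *NOP56* (−0.81, 0.13, adjusted p = 0.000343 by edgeR). *FBL*, the box C/D methyltransferase, named after its values were seen, rose with shEVI1-2531 (0.61, 0.16, adjusted p = 0.0226) and fell with shEVI1-2532 (−0.91, 0.16, adjusted p = 0.000867 again by edgeR).

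Cytosolic ribosomal protein genes, which also start within pyrimidine runs, showed another pattern. None of 79 passed the test after PARPi in either direction, and their median was 0.20, with 6 of the 79 fold changes below 0. With shEVI1-2532, 35 rose and none fell, at a median of 0.32, among them *RPL12* (0.84, standard error 0.13, adjusted p = 0.000317 by edgeR), but with counts scaled to the library total alone 11 rose and 9 fell. Their median log2 ratio to DMSO was 0.03 and −0.01 at 12 h after olaparib and talazoparib and 0.54 and 0.64 at 48 h, and that of DMSO at 48 h to 12 h was 0.47. Beside these stood 0.27 and 0.38 for the host genes *GAS5*, *SNHG5*, *SNHG6*, *SNHG8* and *ZFAS1* at 48 h, and 0.78 for DMSO at 48 h against 12 h.

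Of 17 nonsense-mediated decay factors, none passed the test after PARPi (median −0.20), and 5 fell with shEVI1-2532, among them *MAGOHB* (−1.27, standard error 0.19, adjusted p = 0.000206) and *UPF2* (−1.05, 0.19, adjusted p = 0.00107 by edgeR), a subunit of the exon junction complex and an adaptor of the helicase that starts decay. Of 12 regulators of the translation of such pyrimidine-start RNAs, none passed after PARPi (median −0.25). With shEVI1-2532, 5 fell, including the kinase *MTOR* (−1.63, 0.16, adjusted p = 8.06e-06) and *LARP1B* (−1.43, 0.18, adjusted p = 6.14e-05), and *EIF4EBP2* rose (0.97, 0.14, adjusted p = 0.000159 by edgeR). Among all genes tested 19.9% were lower and 21.2% higher with that hairpin, and neither list was tested as a set.

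Genes whose level ran most like that of the host genes over the 16 libraries were found by Pearson's r on log2 CPM centred within each experiment, among 9104 genes whose average log2 CPM exceeded 3. For the mean of the 10 host genes these were *PMS2P1* (0.95), *TTC28-AS1* (0.94), *CKS2* (0.93), *FAM216A* (0.93) and *IMMP1L* (0.93), and for *SNHG1* alone *EXOSC8* (0.97), *HTRA2* (0.96) and *FAM92A* (0.96). The libraries share controls and time courses, so these values only describe likeness. Among the 5 lower host genes r lay between 0.79 and 0.98 for the 10 pairs of genes, among the other 5 between 0.72 and 0.97, and between the sets from −0.52 to 0.28 over 25 pairs. The sets were drawn from values in these libraries, so a higher r within than between them follows in part from that choice.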

How the data were processed

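RNA-Seq libraries (TruSeq Stranded mRNA) of 16 conditions were used. The authors deposited raw read counts and TPM for 60623 genes in each library. Their labels name STAR, Picard and featureCounts and the builds hg38 and GRCh38. Versions, annotation and the strand setting of counting are not given in the sources used here. The deposited TPM values divide by the whole span of a gene, introns included, and were used only for a check of the counts. From the counts, genes were kept that reached 10 counts in 3 or more of the 9 inhibitor and DMSO libraries (17218 genes) or 2 or more of the 6 knockdown libraries (18606 genes), and were fitted with edgeR 4.0.16 in R 4.3.3 (TMM scaling, quasi-likelihood test, hour or day as a factor, Benjamini-Hochberg adjustment over all genes, threshold 0.05). The error had 4 and 2 residual degrees of freedom, because no condition was repeated. In edgeR it is moderated across genes, so the standard error and interval of a gene also rest on the spread of other genes. Intervals of single ratios cover counting error only, and 3 counts correspond to 0.0249 to 0.0536 CPM.

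The 10 host genes and all gene lists were chosen with earlier results of these data known. Besides the 10 genes, those overlapping them and *EVI1*, up to 2 genes in each direction were named per list by the smallest p for PARPi and for shEVI1-2532, with the 5 and 3 genes most alike in pattern. Some genes that this rule names are not reported here. Alternatives were DESeq2 1.42.0, other scalings, no filter, no hour, day or hairpin in the model, and leaving out libraries. The fitting code was tested on simulated data.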

Additional observations from a re-analysis of the deposited data

Results flagged for a closer look

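The effects of the 2 hairpins against the same NTC libraries differed for 6 host genes, by the test of the difference itself in edgeR's fit, where 12.0% of all genes were lower and 12.2% higher with shEVI1-2532. These libraries also led to the choice of the genes. The log2 difference of shEVI1-2532 from shEVI1-2531 was −1.49 for *SNHG4*, −1.18 for *SNHG1*, −1.15 for *SNHG12*, −0.98 for *SNHG3*, −0.78 for *SNHG15* and −0.52 for *SNHG5*. The residual *EVI1* level also differed between the hairpins, and its part in these differences was not tested.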

How the results depend on the processing

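With 1 library per condition, leaving out a library assumes that the lone one left varies like the others. Over all genes, PARPi called 718 genes, 3474 with DESeq2, 3728 with no filter, 468 with counts scaled to the library total alone, 16 with no hour in the model and 0 to 3768 when an hour was left out (0 without 24 h, 1240 without 48 h and 3768 without 12 h). Talazoparib against olaparib called 0 genes, 1 with DESeq2, 5 with no filter and 0 to 2 when an hour was left out. With no day in the model, shEVI1-2532 against NTC called 3536 genes in place of 7648, shEVI1-2531 565 in place of 3235, and the hairpins against each other 921 in place of 4505. Day 6 against day 3 called 4430 genes and 0 with no hairpin in the model. Leaving out libraries gave 5322 to 8482, 1829 to 3885, 2861 to 4972 and 2535 to 4028 genes for these 4 comparisons. Of the 10 host genes, the hairpins against each other called 6, 1 with no day in the model and 5 to 7 when a library was left out, and the days called 7, 0 with no hairpin in the model and 4 to 8. The share of pairs of a host gene and a treated library below the control was 65.0% to 87.5% when an hour was left out and 60% to 90% when a day was.

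Scaling to the library total alone moved the median of all genes by −0.30 for shEVI1-2532 and −0.17 for shEVI1-2531, by −0.13 between the hairpins and by 0.15 between the days. Higher and lower calls were then 2360 and 5956 in place of 3942 and 3706 for shEVI1-2532, 1049 and 2270 in place of 1765 and 1470 for shEVI1-2531, 1524 and 3000 in place of 2271 and 2234 between the hairpins, and 3533 and 1250 in place of 2223 and 2207 between the days. After PARPi it gave 0 calls among the protein-coding hosts, 0 among the snoRNA-binding proteins and 1 among ribosomal protein genes, and DESeq2 gave 11, 12 and 1, with 4 among the decay factors and 5 among the regulators of translation. With shEVI1-2532 it gave 16 calls among the snoRNA-binding proteins, 11 among the decay factors and 20 among ribosomal protein genes. The cause of these changes was not tested. Of the 100 log2 ratios of a host gene to its control, 5 changed sign with the library total alone (*SNHG5* with talazoparib and *SNHG6* with olaparib at 48 h, *SNHG8* with both hairpins and *ZFAS1* with shEVI1-2531 at day 6), 1 with the upper quartile (*SNHG8* with shEVI1-2531 at day 6) and 0 with relative log expression scaling, and none of these exceeded 0.17 in size under TMM. Treated and control libraries were matched by hour or day throughout, and the labels give no replicate numbers to pair beyond that.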
